A study of Vitis vinifera with 60 samples.

Results

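The genes described here are 150 grapevine genes whose median expression over 5 cultivars was highest in harvested berries. They were chosen from the 29287 gene rows of the table by their measured values. For each gene the median FPKM over 5 cultivars was taken at each stage, where FPKM is the number of fragments scaled to the length of the transcript and to the mapped fragments of the library. A gene qualified when its harvest median was at least 10 FPKM and more than 2 times the median of each earlier stage, and 373 genes met this. Of these, 60 lie on 4 scaffolds (VIT_16s0100, VIT_10s0042, VIT_16s0039 and VIT_05s0077) and were left out, because stretches of these scaffolds are known in grapevine for stilbene synthase genes, phenylalanine ammonia-lyase genes and pathogenesis-related PR10 genes. The remaining 313 genes were ranked by the harvest median plus 1 over the largest earlier median plus 1, and the first 150 were taken. The harvest peak of these genes is therefore a property of how they were picked, and it is given below as a description with no test.

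The study followed the pericarp, meaning the whole berry without its seeds, of 5 red Italian cultivars of Vitis vinifera at 4 stages by RNA sequencing. The cultivars were Sangiovese, Barbera, Negroamaro (written Negro amaro in the cultivar field), Refosco and Primitivo, and the stages were pea-sized berries, berries touching within the bunch, soft berries and harvested berries. All vines grew in 1 vineyard and all berries were of the 2011 season. The labels give 60 non-directional libraries, 3 biological replicates for each cultivar and stage, while the table holds 1 mean for each of the 20 combinations, so the spread between replicates and the depth of each library are unknown here. No agent or genotype other than the cultivar separates the groups. The cultivar is the unit of replication in comparisons of stages, with n = 5 at each stage. In tests between cultivars the 3 stages before harvest serve as repeats. A difference between 2 cultivars within a stage rests on 1 column against another.

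A grape berry first grows as a hard green fruit that stores organic acids. At softening, called veraison, growth by cell expansion resumes, hexoses accumulate, acids decline and, in red cultivars, the skin begins to make anthocyanins. During the last weeks before harvest sugars are concentrated further, aroma compounds and stilbenes form, and the skin ages and loses water, a phase in which many defence-related and stress-related genes are known to be expressed in grapevine pericarp. None of the tags in the table matched the reference annotation used here, so the 150 genes are named by their tags alone, no function is given for any of them, and tissue markers could not be read. The first 2 digits of a tag name the chromosome, and 00 stands for sequence placed on none.

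The labels of a pair of harvest columns went against the rest of the table, and this touches each statement below on Negroamaro or Primitivo at harvest. For each gene tested the deviation of a cultivar from the stage mean was taken on the log2(FPKM + 1) scale. The 18207 genes tested were those averaging 1 FPKM or more over all columns. Across them the harvest column labelled Negroamaro had a Pearson r of -0.098 with the earlier Negroamaro columns and of 0.452 with the earlier Primitivo columns. The harvest column labelled Primitivo had an r of -0.087 with the earlier Primitivo columns and of 0.442 with the earlier Negroamaro columns. These genes are not independent replicates. The other harvest columns had an r of 0.501 for Sangiovese, 0.503 for Barbera and 0.373 for Refosco with their own earlier columns, and each of the 15 earlier columns lay closest to its own cultivar.

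The same was seen in genes off in one cultivar and on in another. Of 19 genes under 1 FPKM in Negroamaro and at 5 FPKM or more in Primitivo at all 3 earlier stages, 0 kept that direction between the columns labelled so at harvest and 15 had the opposite one. Of 26 genes off in Primitivo and on in Negroamaro, 0 kept it and 18 were opposite. In the other 18 ordered pairs of cultivars, 1 of 308 such genes was opposite and 101 kept the direction. Among the 150 genes, the neighbours VIT_05s0020g05000 and VIT_05s0020g05020 had 24.3 and 81.1 FPKM in the harvest column labelled Negroamaro, against 0.184 and 0.119 FPKM in soft Negroamaro berries. In the harvest column labelled Primitivo they had 0.179 and 0.226 FPKM, against 5.67 and 9.63 FPKM in soft Primitivo berries. The columns are called by their labels below. Many of the counts and ratios that rest on them are also given without them or with the columns exchanged. The other counts and ratios, and the levels of single genes, are given as labelled. The choice of the 150 genes does not depend on which label each of these columns carries, since a median over 5 cultivars is the same after an exchange.

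**Figure D1:**
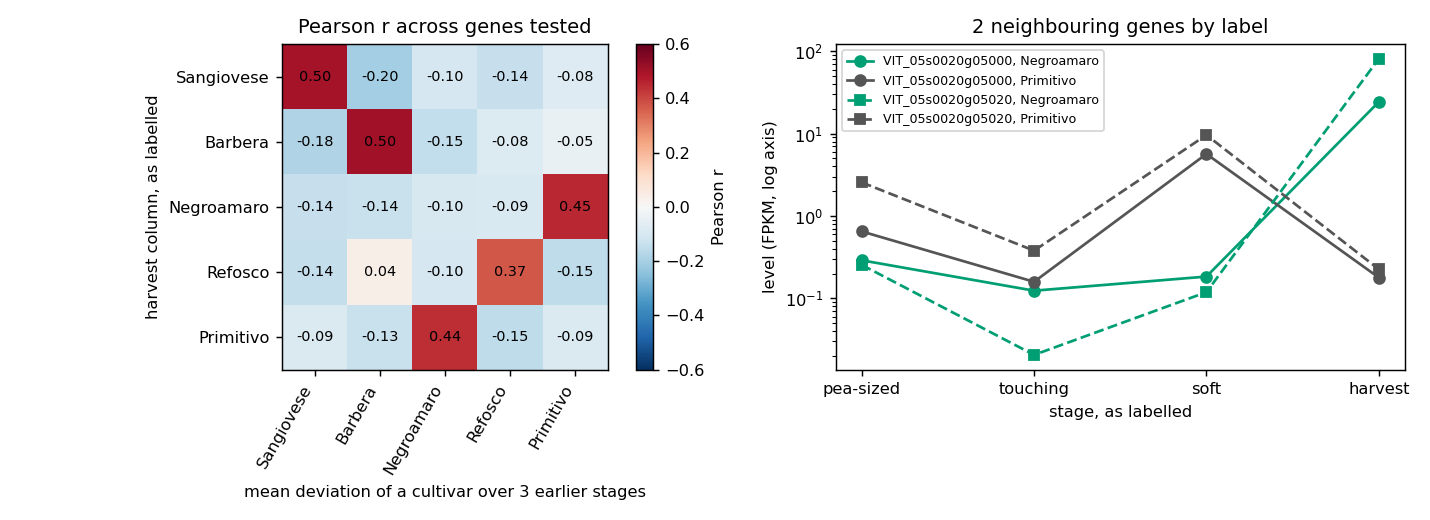
The left panel gives Pearson r, across 18207 genes, between each harvest column (rows) and the mean deviation of each cultivar over the 3 earlier stages (columns). The right panel plots FPKM on a log axis against stage for 2 neighbouring genes under the Negroamaro and Primitivo labels. The columns labelled Negroamaro and Primitivo had their highest r with the other cultivar (0.452 and 0.442), and both genes cross over at harvest.

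Most of the 150 genes had low medians in green berries, and single genes were abundant there. The median gene of the 150 stood at 1.97 FPKM in pea-sized, 1.20 in touching, 4.20 in soft and 34.8 in harvested berries, as medians over genes of the stage medians. Over all genes tested the same medians were 14.2, 14.1, 10.7 and 9.57 FPKM. Touching berries had the lowest of the 4 stage medians in 93 of the 150 genes. Before harvest the highest stage was soft in 105 genes, pea-sized in 37 and touching in 8. The 37 include ties, namely VIT_13s0067g03340, VIT_14s0066g00570 and VIT_14s0006g02100, whose 3 earlier medians were all 0. These counts of stages were not made over all genes tested. For 13 genes all 3 earlier medians were under 1 FPKM, and 45 genes had already reached a median of 10 FPKM or more in soft berries.

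Harvest medians ran over 3 orders of magnitude, between 10.1 and 15002 FPKM. For 95 genes the harvest median was under 50 FPKM, and for 23 it was 100 FPKM or more. The number of the 150 genes at 10 FPKM or more was between 19 and 27 in the pea-sized columns, 18 and 24 in the touching, 40 and 84 in the soft, and 118 and 136 in the harvest columns. Soft Negroamaro berries, with 84 such genes and a median of 12.2 FPKM, stood above the other soft columns, whose medians were 3.96 in Sangiovese, 6.09 in Barbera, 3.34 in Refosco and 4.41 FPKM in Primitivo. At harvest the column medians were 31.4 in Sangiovese, 25.1 in Barbera, 39.5 in the column labelled Negroamaro, 55.8 in Refosco and 29.1 FPKM in the column labelled Primitivo.

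**Figure D2:**
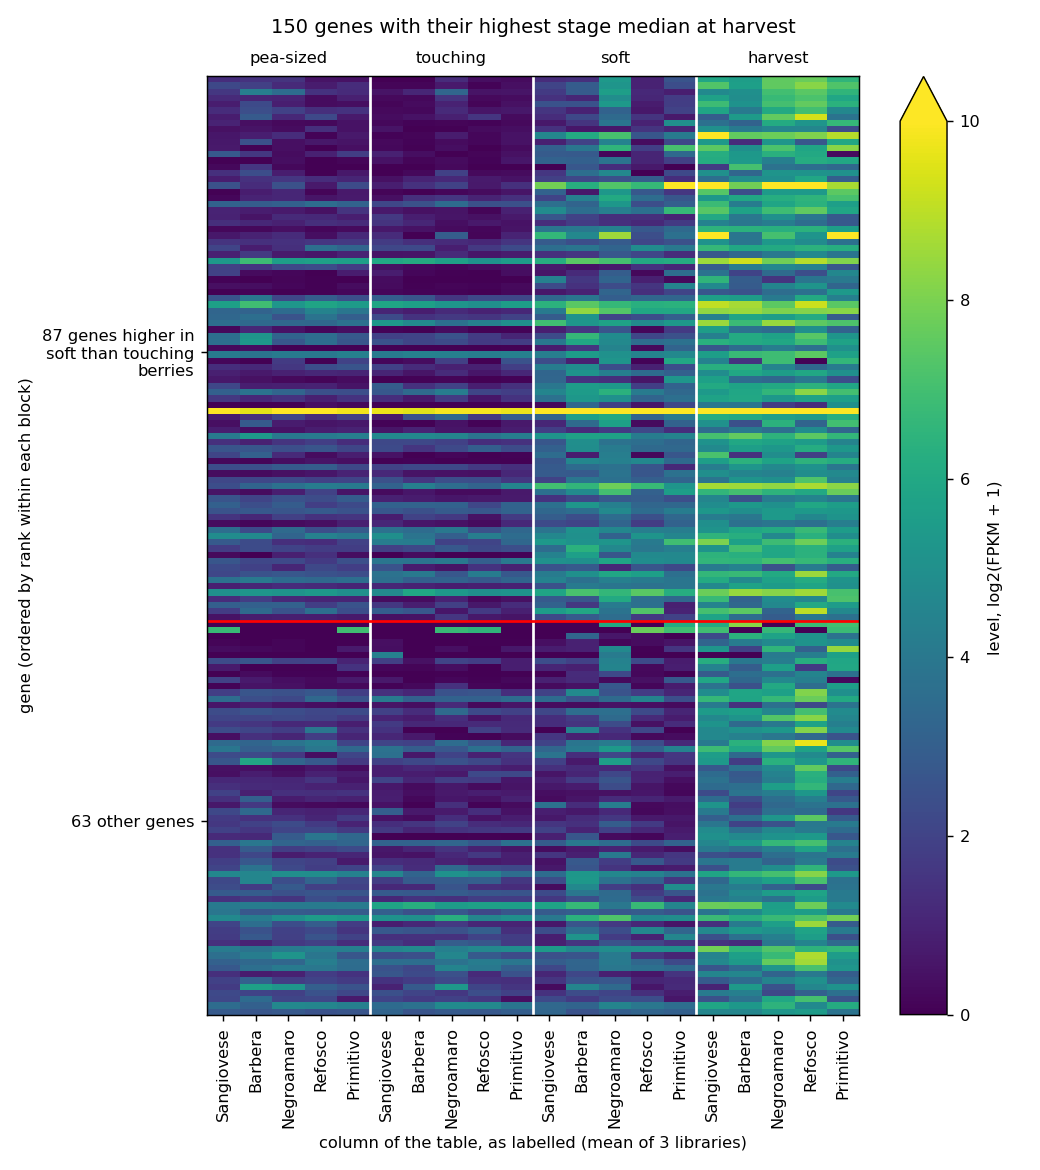
Each row is 1 of the 150 genes and each column 1 cultivar at 1 stage, with the level as log2(FPKM + 1) in colour. The upper 87 rows were higher in soft than in touching berries by the test given below, the lower 63 were not, and the bright row in all columns is VIT_06s0004g04650.

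Together these genes made up 0.228 ± 0.0129% of the summed FPKM in pea-sized berries, 0.180 ± 0.0172% in touching, 0.643 ± 0.294% in soft and 3.06 ± 0.498% in harvested berries (SD, n = 5 cultivars). A single gene, VIT_06s0004g04650, held much of that sum, at harvest between 8519.6 of 26002 FPKM in Refosco and 21870.4 of 29806 FPKM in Barbera. Without it the shares were 0.106 ± 0.0197%, 0.0840 ± 0.0119%, 0.262 ± 0.0814% and 1.33 ± 0.410%. At harvest the sum over the other genes was largest in Refosco, with 2.00% of the total, against 1.44% in Sangiovese, 0.987% in Barbera, 1.14% in the column labelled Negroamaro and 1.09% in that labelled Primitivo. FPKM are shares of a whole, so a lower output of other genes and a higher output of these cannot be told apart, nor can more cells of a type and more RNA per cell.

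**Figure D3:**
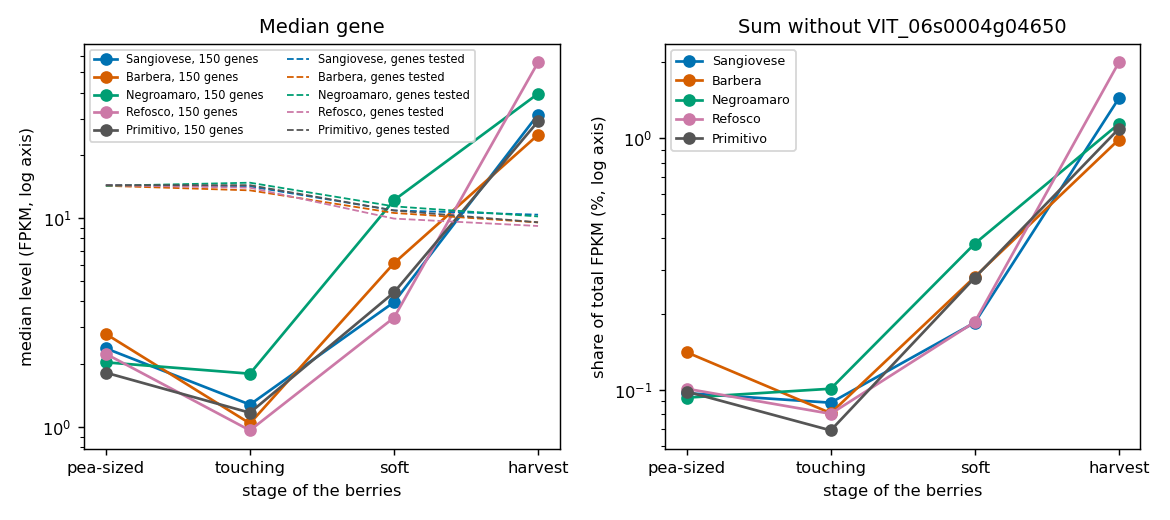
The left panel gives the median FPKM (log axis) of the 150 genes in each column as solid lines and of 18207 genes tested as dashed lines. The right panel gives the summed FPKM of the set without VIT_06s0004g04650 as a percentage of the column total (log axis). The medians of the 150 genes lie between 0.963 and 2.79 in green berries and between 25.1 and 55.8 FPKM at harvest, and Negroamaro is highest in soft berries.

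VIT_06s0004g04650 was the most abundant of the 150 genes in each of the 20 columns. It stood at 778 to 1127 FPKM in pea-sized and 743 to 941 FPKM in touching berries. Soft berries had 2044 FPKM in Sangiovese, 5342 in Barbera, 7199.9 in Negroamaro, 1704 in Refosco and 3808 in Primitivo. The 5 soft values all lay above the 10 green ones, with Negroamaro highest and Refosco lowest. Between soft and touching berries the log2 difference was 2.02 (SE 0.32, adjusted p = 3.31e-04, limma). At harvest it had 15002 FPKM in Sangiovese, 21870.4 in Barbera, 10734 in the column labelled Negroamaro, 8519.6 in Refosco and 18504 in that labelled Primitivo. Its harvest levels ordered the columns in reverse of the column medians, with Barbera first and Refosco last.

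By harvest median the next most abundant were VIT_12s0034g01970, VIT_00s0125g00070, VIT_00s0125g00020 and VIT_04s0008g05770. At harvest VIT_04s0008g05770 had 398 FPKM in Sangiovese, 368 in Barbera, 322 in the column labelled Negroamaro, 424 in Refosco and 304 in that labelled Primitivo. Its 5 harvest columns were nearly level. Soft berries had 116 ± 65.9 FPKM and touching berries 13.5 ± 6.32 FPKM of it (SD, n = 5), a log2 difference of 2.92 (SE 0.50, adjusted p = 5.15e-04).

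The choice of genes did not compare soft with touching berries, but low soft and touching medians were part of that choice. At softening 87 of the 150 genes rose (58%), against 16.0% of all genes tested, and 3 fell (2%), against 45.9% of all. The touching median was 1.20 FPKM over the 150 genes and 14.1 FPKM over all genes tested. The 150 genes thus had less room to fall on the log2(FPKM + 1) scale. The low share of falls is in part set by the choice, and the shares side by side are a description. The median log2 change was 1.05 over the 150 genes and -0.26 over all genes tested. These calls come from 1 limma model of log2(FPKM + 1) on the 15 columns before harvest, with stage and cultivar as terms and an adjusted p under 0.05 over 18207 genes. Of the 87 genes, 71 rose at least 2-fold and 12 at least 8-fold after adding 1 to each FPKM value, which makes changes of weak genes look smaller. In 76 of the 87 the soft value was above the touching value in all 5 cultivars.

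All 150 genes passed the filter of a mean of 1 FPKM over 20 columns, and for 13 of them this came from the harvest columns, since their mean over the 15 earlier columns was under 1 FPKM. Among the other 137 genes 84 rose and 3 fell at softening. The balance moved with the scaling. With upper-quartile scaling 99 genes rose and 0 fell, with quantile normalization 109 and 0, and with an equal total FPKM in each column 80 and 7. The share of higher calls among the called genes of the whole table was 25.8% as deposited and 45.4%, 54.0% and 14.9% under these scalings, and the median change of all genes was -0.26 as deposited and -0.04, 0.05 and -0.45.

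**Figure D4:**
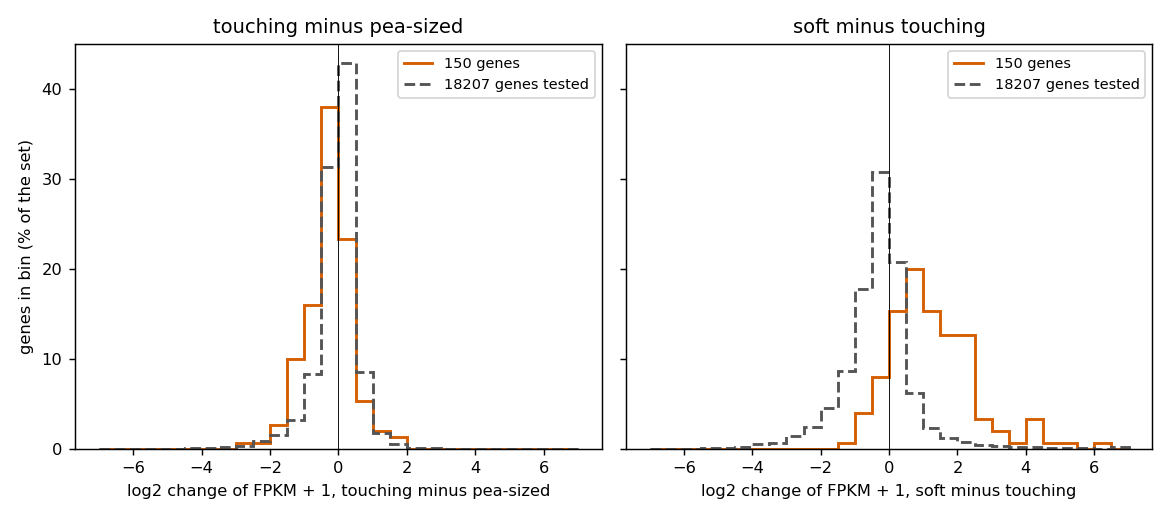
The panels give the percentage of genes in bins of log2 change of FPKM + 1, for touching minus pea-sized (left) and soft minus touching berries (right). The solid line is the 150 genes and the dashed line the 18207 genes tested. At softening the median of the 150 genes is 1.05 and that of all genes -0.26.

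The largest rise at softening belonged to VIT_12s0034g01970. Soft berries had 233 FPKM in Sangiovese, 75.3 in Barbera, 156 in Negroamaro, 103 in Refosco and 1094 in Primitivo, and touching berries had 0.792, 1.70, 2.93, 0.589 and 1.63 FPKM in the same order. No soft value came near a touching one, and Primitivo stood far above the other soft columns. The log2 difference was 6.38 (SE 0.48, adjusted p = 2.39e-06). At harvest Sangiovese had 1649.6, Barbera 228, the column labelled Negroamaro 1039, Refosco 1723 and the column labelled Primitivo 418 FPKM.

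VIT_14s0171g00100 rose next most, after a fall in the step before. Its levels in soft berries were 15.9 FPKM in Sangiovese, 335 in Barbera, 158 in Negroamaro, 61.9 in Refosco and 62.2 in Primitivo, against 0.743 to 1.26 FPKM in touching berries. All 5 soft columns were higher, with a log2 difference of 5.33 (SE 0.58, adjusted p = 2.58e-05). In soft Barbera it had already come close to the harvest level, which was 357 FPKM in Barbera and between 265 and 357 FPKM over the 5 columns. Its harvest columns were the most alike of all 150 genes.

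VIT_05s0020g05040 had 23.4 FPKM in Sangiovese, 68.3 in Barbera, 134 in Negroamaro, 5.43 in Refosco and 16.4 in Primitivo when soft, against 0.0795 to 0.690 FPKM in touching berries. The log2 difference was 4.59 (SE 0.48, adjusted p = 2.01e-05). At harvest Sangiovese stood apart with 1488 FPKM, while Barbera had 192, the column labelled Negroamaro 215, Refosco 264 and that labelled Primitivo 467 FPKM.

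The 3 genes that fell at softening did so by less than 1 on the log2(FPKM + 1) scale. Their higher harvest medians were set by the choice of genes. VIT_04s0008g01280 had 0.538 to 3.35 FPKM in soft against 1.27 to 5.39 FPKM in touching berries, a log2 difference of -0.98 (SE 0.34, adjusted p = 0.0264) that missed the threshold without Sangiovese (adjusted p = 0.113), Negroamaro (0.108) or Primitivo (0.0805). VIT_15s0046g02170 differed by -0.66 (SE 0.26, adjusted p = 0.0481), and this call was lost when Sangiovese, Barbera, Refosco or Primitivo was left out. For VIT_13s0067g03200 the difference was -0.41 (SE 0.15, adjusted p = 0.0350), lost without Sangiovese, Negroamaro or Refosco. None of the 3 was called after upper-quartile or quantile scaling. At harvest VIT_15s0046g02170 reached 389 FPKM in Refosco and 199.6 FPKM in the column labelled Negroamaro, while Sangiovese had 24.4, Barbera 43.1 and the column labelled Primitivo 32.2 FPKM.

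Between touching and pea-sized berries few of the 150 genes were called. In touching berries 7 were higher (4.67%), against 17.0% of all genes tested, and 18 were lower (12%), against 13.9% of all. The other 125 were not called, and the median log2 change was -0.26 over the 150 genes and 0.03 over all genes. Of the 137 genes that averaged 1 FPKM or more before harvest, 6 were higher and 17 lower. Higher calls were 28% of the called genes among the 150 as deposited, 25% with upper-quartile scaling, 45.5% with quantile normalization and 16.7% with equal totals. Over all genes called the same shares were 54.9%, 49.6%, 60.3% and 27.0%. Without Primitivo 4 genes were higher and 10 lower. A gene not called need not be unchanged, since adding 1 to each FPKM value shrinks the changes of weak genes. With 0.1 added in its place, 8 of the 150 genes were higher and 26 lower, against 16.6% and 13.2% of all genes.

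VIT_18s0072g01010 climbed at each step. It had 2.21 to 5.38 FPKM in pea-sized, 7.23 to 15.7 in touching, 25.5 to 58.2 in soft and 78.3 to 129.5 FPKM in harvested berries, and no stage overlapped the next. Its log2 change was 1.56 between touching and pea-sized berries (SE 0.19, adjusted p = 3.50e-04) and 1.32 between soft and touching berries (SE 0.19, adjusted p = 1.85e-04).

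In touching berries VIT_06s0004g01640 had 56.8 FPKM in Sangiovese, 75.7 in Barbera, 44.6 in Negroamaro, 51.0 in Refosco and 48.9 in Primitivo, against 15.8 to 17.3 FPKM in pea-sized berries. The 5 touching values were all higher, by 1.67 on the log2 scale (SE 0.38, adjusted p = 0.00941). Its soft columns then parted, with 54.2 FPKM in Sangiovese, 103 in Barbera and 106 in Refosco, but 14.5 in Negroamaro and 22.4 in Primitivo. The harvest columns showed the same division by label, with 208 FPKM in Sangiovese, 199 in Barbera and 212 in Refosco, but 48.2 in the Negroamaro-labelled column and 26.6 FPKM in the Primitivo-labelled one. VIT_12s0034g01870 was also called higher in touching berries, by 1.21 (SE 0.39, adjusted p = 0.0373), a call lost when any 1 of the 5 cultivars was left out (adjusted p between 0.0526 and 0.0980).

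Among the genes lower in touching than in pea-sized berries, VIT_14s0171g00100 fell most, to 0.743 to 1.26 FPKM, against 8.13 to 21.3 FPKM in pea-sized berries. Its log2 change was -2.66 (SE 0.58, adjusted p = 0.00736). VIT_08s0040g00130 was listed at 0 in 4 touching columns and at 0.0543 FPKM in Refosco, against 1.23 to 14.4 FPKM in pea-sized berries, with a log2 change of -2.48 (SE 0.61, adjusted p = 0.0131) that missed the threshold without Negroamaro (0.0502) or Primitivo (0.0677). Both genes were thus present in pea-sized berries, nearly gone in touching berries and high at harvest. VIT_01s0011g02320 fell less far, to 1.05 to 4.95 FPKM in touching berries, against 5.84 to 35.7 FPKM in pea-sized berries, with a change of -1.81 (SE 0.57, adjusted p = 0.0346) that was lost without Sangiovese, Refosco or Primitivo, and a soft-minus-touching change of 1.81 (adjusted p = 0.0173) that was lost without Barbera, where soft berries had 101 FPKM.

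Before harvest few of the 150 genes were called different between cultivars. The moderated F test over the 5 cultivars called 19 (12.7%), against 21.3% of all genes tested. In 18 genes (12%, against 7.75% of all) at least 1 cultivar stood apart from the mean of the other 4, the threshold being an adjusted p of 0.05 together with a log2 difference of 1. Negroamaro was above the others in 9 genes (6%, against 1.70% of all) and below in 3 (2%, against 1.13%). Primitivo was above in 2 (1.33%, against 1.10%) and below in 6 (4%, against 1.51%). Sangiovese was above in 1 (0.667%, against 1.31%) and below in 3 (2%, against 1.29%), and Barbera above in 2 (1.33%, against 0.846%) and below in 0, where 1.03% of all genes were below. Refosco was called in neither direction, with 1.08% of all genes above and 1.20% below. The F count was 12 without Sangiovese, 10 without Negroamaro and 10 without Primitivo, against 11.7%, 12.9% and 10.5% of all genes. The count of genes with any cultivar apart was 7 without Sangiovese, 8 without Negroamaro and 10 without Primitivo, against 5.33%, 5.76% and 5.10% of all genes, so the share among the 150 was then close to that of all genes.

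Among the called cultivar differences the largest was that of VIT_06s0004g01010, with a mean of 22.6 FPKM in Negroamaro and 3.03 FPKM in the other 4 cultivars before harvest. Negroamaro had 10.7 FPKM in pea-sized, 8.87 in touching and 48.1 in soft berries. Barbera was the only other cultivar above 2.21 FPKM, with 18.2 FPKM in pea-sized and 6.24 FPKM in soft berries. The log2 difference of Negroamaro from the others was 2.67 (SE 0.45, adjusted p = 0.00584).

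VIT_13s0064g01100 separated several cultivars at once. Negroamaro averaged 28.6 FPKM before harvest, against 8.40 FPKM in the others (log2 difference 2.42, SE 0.43, adjusted p = 0.00804). Sangiovese averaged 1.17 FPKM, against 15.3 FPKM in the others (-2.18, SE 0.43, adjusted p = 0.0138), and Barbera was also above the rest (2.01, SE 0.43, adjusted p = 0.0231). The Negroamaro call was lost without Sangiovese (0.0580), the Sangiovese call without Negroamaro (0.0578), and the Barbera call without Sangiovese (0.127), Refosco (0.0538) or Primitivo (0.0871). At harvest Sangiovese was still at 0.999 FPKM, Barbera had 42.6 FPKM, the Negroamaro-labelled column 4.66, Refosco 22.8 and the Primitivo-labelled column 33.4 FPKM.

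VIT_01s0011g05900 averaged 23.2 FPKM in Primitivo before harvest, against 3.90 FPKM in the other 4 cultivars (log2 difference 2.42, SE 0.54, adjusted p = 0.0233), a call lost without Sangiovese (0.0691). In soft berries Primitivo had 62.0 FPKM, and Negroamaro also expressed it, with 36.3 FPKM. Refosco had 0.0283 FPKM at harvest and at most 0.0768 FPKM at any earlier stage, while the harvest columns labelled Negroamaro and Primitivo had 117 and 97.1 FPKM. It is thus a harvest gene by its median that Refosco berries did not express above 1 FPKM.

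In soft berries the 150 genes leaned towards Negroamaro. The soft column of Negroamaro was the highest of the 5 in 69 genes (46%), against 22.9% of all genes tested, and Barbera was highest in 40 (26.7%, against 22.0%). The fewest were highest in Sangiovese, with 10 (6.67%, against 22.1%). In 82 genes (54.7%, against 9.44% of all) soft Negroamaro had more than 2 times the median of the other 4 soft columns. The count at more than 2 times the median was not made for the other soft columns. The choice of genes kept the soft median low but set no limit on a single soft column. These shares therefore describe the genes, and with 1 column per cultivar no test was made.

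At harvest Refosco was most often the highest column. It was highest in 71 of the 150 genes (47.3%), against 17.3% of all genes tested. Sangiovese was highest in 29 (19.3%, against 27.2%), Barbera in 18 (12%, against 15.6%), the column labelled Negroamaro in 12 (8%, against 22.9%) and that labelled Primitivo in 20 (13.3%, against 17.0%). Without the doubted columns Refosco was highest in 85 genes (56.7%, against 26.8%), Sangiovese in 46 (30.7%, against 45.0%) and Barbera in 19 (12.7%, against 28.2%). Since the harvest median over these columns chose the genes, these shares describe them and test nothing.

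Levels at harvest also spread widely between cultivars. The ratio of the highest to the lowest harvest column, each plus 1 FPKM, had a median of 5.27 over the 150 genes and 1.75 over all genes tested, and without the doubted columns 3.82 and 1.52. In 40 genes (26.7%, against 3.72% of all) the ratio was 10 or more, and in 11 (7.33%, against 61.8%) it was under 2. Without the doubted columns 29 genes (19.3%, against 2.64%) had a ratio of 10 or more and 34 (22.7%, against 72.3%) one under 2. Among the 60 left-out genes the median ratio was 32.8. These medians are set side by side as a description.

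The gene with the widest ratio among those without a column at 0 was VIT_05s0094g00160. It had 1.62 FPKM in Sangiovese, 16.8 in Barbera, 48.7 in the column labelled Negroamaro, 361 in Refosco and 6.40 in that labelled Primitivo. Refosco stood far above all others. VIT_07s0129g01010 followed the same order, with 6.46, 44.0, 195, 656 and 12.9 FPKM, and so did VIT_11s0065g00350, with 15.8, 82.0, 283, 834 and 29.1 FPKM. In these 3 genes Refosco came first, the column labelled Negroamaro next and Barbera after it.

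That order of the 3 highest columns held in 23 of the 150 genes (15.3%), against 4.76% of all genes tested, and in 47 of the 60 left-out genes. On the 3 left-out scaffolds other than VIT_05s0077 it held in 46 of 50. Without the doubted columns, the order Refosco, Barbera, Sangiovese held in 49 of the 150 genes (32.7%, against 16.6% of all) and in 52 of the 60 left-out genes. The first of these orders was read from genes that are themselves among the 23. The harvest columns chose both the 150 and the 60 genes, so these counts describe them and test nothing. On VIT_16s0100, a scaffold known for stilbene synthase genes, 32 genes met the harvest rule and were left out. Their summed harvest levels were 432 FPKM in Sangiovese, 1595 in Barbera, 5536 in the column labelled Negroamaro, 15103 in Refosco and 648 in that labelled Primitivo. Of the 23 genes with the order Refosco, Negroamaro as labelled, Barbera, 19 were among the 63 not called higher at softening and 4 among the 87 called. The 63 genes had a harvest median of 20.6 FPKM and a median ratio between columns of 6.92, and the 87 genes 46.1 FPKM and 4.07. Whether the 2 sets differ was not tested.

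Other genes had a different order. VIT_03s0088g00710 had 1522 FPKM in Sangiovese, 13.7 in Barbera, 132 in the column labelled Negroamaro, 34.9 in Refosco and 1010.3 in that labelled Primitivo. Its neighbour VIT_03s0088g00700 had 36.0, 2.85, 91.6, 7.71 and 339 FPKM. Barbera and Refosco were the low columns of both. VIT_19s0014g01370 had 139.9 FPKM in Sangiovese, 1.68 in Barbera, 28.9 in the column labelled Negroamaro, 2.68 in Refosco and 21.7 in that labelled Primitivo. At the other end VIT_14s0171g00100, VIT_13s0074g00470 and VIT_04s0008g05770 had ratios of 1.34, 1.38 and 1.39. For VIT_13s0074g00470 the harvest values were 37.8, 30.1, 41.9, 41.9 and 38.4 FPKM in the same order, and soft berries had 9.04 to 25.4 FPKM, all above the 4.50 to 8.11 FPKM of touching berries (log2 difference 1.08, SE 0.20, adjusted p = 0.00101).

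**Figure D5:**
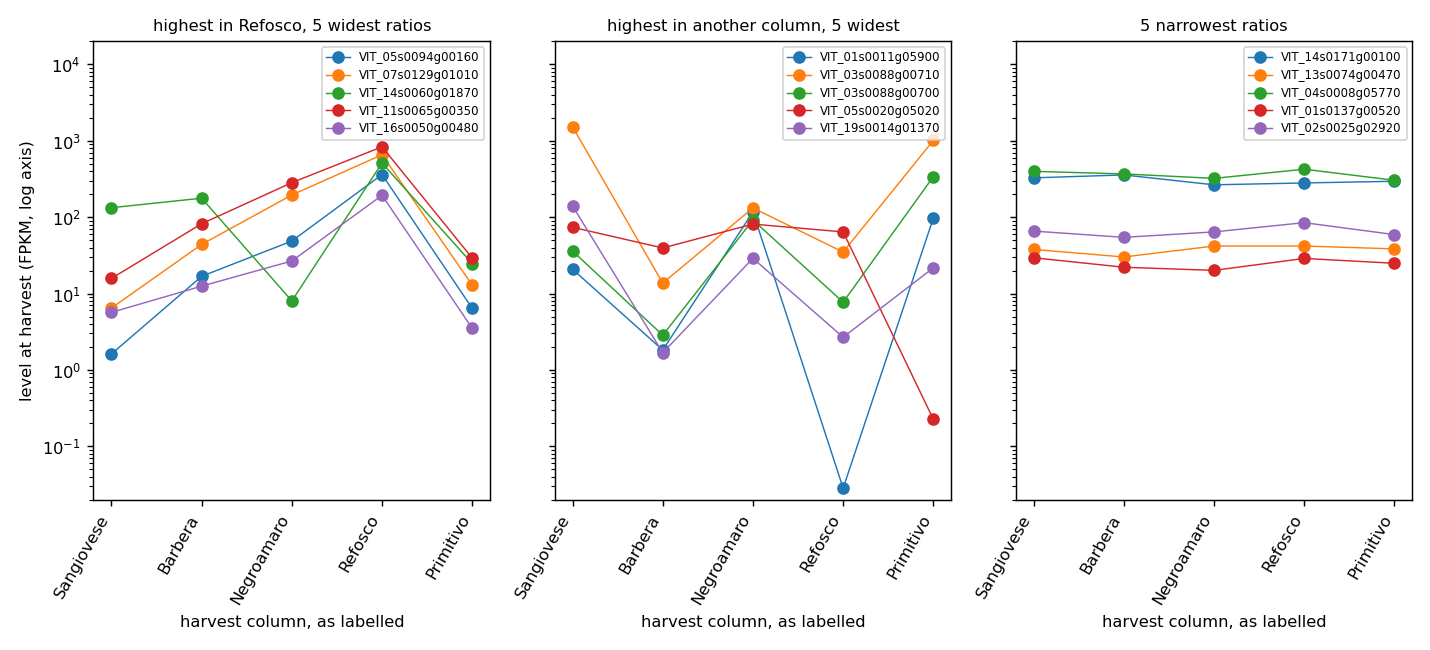
Each line is 1 gene and gives its FPKM (log axis) in the 5 harvest columns as labelled. The panels show the 5 genes with the widest ratios among those highest in Refosco, the 5 widest among those highest elsewhere, and the 5 with the narrowest ratios, the 3 genes listed at 0 or at 10 FPKM and more being left out. VIT_05s0094g00160 runs between 1.62 and 361 FPKM, and VIT_14s0171g00100 between 265 and 357 FPKM.

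The harvest peak was also counted within single cultivars. The stage medians of these same cultivars chose the genes, so high counts were built in and test nothing. As labelled, harvest was above each earlier stage in 144 of the 150 genes in Sangiovese (25.3% of all genes tested), 132 in Barbera (22.7%), 132 in Negroamaro (28.2%), 148 in Refosco (26.5%) and 136 in Primitivo (21.7%). It held in 5 of 5 cultivars for 105 genes (8.14% of all), in 4 for 36, in 3 for 6, in 2 for 2 and in 1 for 1. With the doubted columns exchanged it held in Negroamaro for 142 genes (16.1%), in Primitivo for 139 (28.6%) and in 5 of 5 for 117 (8.21%). In Sangiovese, Barbera and Refosco together it held for 129 (13.5%). For 63 genes (2.94% of all) the 5 harvest columns lay above all 15 earlier columns, and for 76 (5.55%) the harvest columns of Sangiovese, Barbera and Refosco did.

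Choosing genes on 4 cultivars left the fifth unused. In each case the same rule picked 150 genes, of which 110 to 118 were among the 150 described here. Harvest was more than 2 times each earlier stage in the unused cultivar for 121 of the 150 chosen genes in Sangiovese, where 4.48% of all genes tested met this. It was so for 91 in Barbera (2.94% of all), 75 in Negroamaro as labelled (5.42%), 128 in Refosco (6.41%) and 106 in Primitivo as labelled (5.47%). With the harvest columns exchanged the counts were 77 for Negroamaro (1.83%) and 118 for Primitivo (6.09%). Refosco had the highest of these counts, and also the highest share over all genes, under either reading of the labels.

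The first genes in rank had low earlier medians, though not low values in each cultivar, and 5 of the first 10 rows were on chromosome 6. VIT_13s0067g03340, ranked 1, was listed at 0 in 14 columns. At harvest it had 65.7 FPKM in Sangiovese, 294 in Barbera, 111 in Refosco and 127 in the column labelled Primitivo, but 0 in that labelled Negroamaro. Its only earlier values above 0 were 66.6 FPKM in soft Negroamaro and 70.6 FPKM in soft Primitivo. VIT_14s0066g00570, ranked 2, was listed at 0 in 11 columns and had 91.2 FPKM or more in the other 9, of which 6 were earlier columns and 3 harvest columns. VIT_14s0006g02100 also held only values of 0 or of at least 10 FPKM, with 19.6 FPKM in touching Sangiovese and 16.8 FPKM in soft Negroamaro before harvest. Of the 150 genes 21 had at least 1 value of 0, and for these an exact 0 may be a failed estimate.

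VIT_00s0270g00010 was listed at 0 in all pea-sized and touching columns and had 8.48 FPKM in soft Barbera and at most 0.522 FPKM in other soft berries. At harvest it had 3.72 FPKM in Sangiovese, 81.6 in Barbera, 53.5 in the column labelled Negroamaro, 34.5 in Refosco and 12.6 in that labelled Primitivo. Barbera came first at both stages. VIT_14s0066g01090 stayed below 1 FPKM before harvest and had 8.33 to 34.4 FPKM at harvest, with Refosco highest and Sangiovese lowest. VIT_05s0020g03140 had 15.8 to 126 FPKM at harvest, again with Refosco highest.

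Some of the 150 genes lay side by side. The 150 genes fell on 73 scaffold fields. Allowing at most 5 rows between them, a limit set after the data were seen, 32 genes formed 13 groups. Of the 150 genes 10 pairs were directly adjacent, and 118 genes had no such neighbour. No like count was made for other sets of genes, so whether these numbers are unusual is not known. Chromosome 14 held 20 of the 150 genes (13.3%), where 6.35% of all genes tested lie, and chromosome 6 held 13 (8.67%, against 5.24%). Smaller shares than among all genes lay on chromosomes 10 (0.667%, against 2.95%), 16 (1.33%, against 3.85%) and 17 (1.33%, against 4.19%). The left-out scaffolds are on chromosomes 5, 10 and 16, which lowers the counts there. Neighbouring genes in grapevine are often tandem copies, and how reads shared by similar copies were assigned is not given, so levels of single neighbours are uncertain.

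On chromosome 6 the adjacent genes VIT_06s0004g01010, VIT_06s0004g01020 and VIT_06s0004g01030 moved together. Summed over the 3, harvested berries had 299 FPKM in Sangiovese, 112 in Barbera, 442 in the column labelled Negroamaro, 662 in Refosco and 325 in that labelled Primitivo. Soft berries had 10 FPKM in Sangiovese, 17.6 in Barbera, 125 in Negroamaro, 2.91 in Refosco and 7.43 in Primitivo. Negroamaro was far above the others when soft, and Refosco was highest at harvest and lowest when soft. The soft-minus-touching change was 2.21 for VIT_06s0004g01020 (SE 0.55, adjusted p = 0.00550) and 2.39 for VIT_06s0004g01030 (SE 0.51, adjusted p = 0.00231). For VIT_06s0004g01010 it was 1.24 (SE 0.44, adjusted p = 0.0313), a call lost without Sangiovese (0.0836), Negroamaro (0.0565) or Refosco (0.0569).

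Farther along the same scaffold, the joined row VIT_06s0004g01980,VIT_06s0004g01990 and its neighbour VIT_06s0004g02010 had the same order of harvest columns. At harvest their sum was 112 FPKM in Sangiovese, 75.4 in Barbera, 293 in the column labelled Negroamaro, 352 in Refosco and 152 in that labelled Primitivo. In soft berries it was 3.09 FPKM in Sangiovese, 2.73 in Barbera, 70.8 in Negroamaro, 2.06 in Refosco and 7.53 in Primitivo. Soft Negroamaro again stood alone. VIT_06s0004g02010 rose at softening by 1.94 (SE 0.54, adjusted p = 0.00951) and the joined row by 1.54 (SE 0.46, adjusted p = 0.0144).

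The largest group, on chromosome 12, held 5 rows of the set between VIT_12s0034g01870 and VIT_12s0034g01970 with 3 other rows among them. At harvest its sum was 2156 FPKM in Sangiovese, 347 in Barbera, 1304 in the column labelled Negroamaro, 2181 in Refosco and 572 in that labelled Primitivo. When soft it was 314 FPKM in Sangiovese, 123 in Barbera, 217 in Negroamaro, 134 in Refosco and 1376 in Primitivo. Here Primitivo led in soft berries, and Sangiovese and Refosco at harvest. All 5 rows rose at softening, by 2.20 for VIT_12s0034g01870 (SE 0.39, adjusted p = 6.35e-04), 2.24 for VIT_12s0034g01910 (SE 0.39, adjusted p = 6.00e-04) and 4.08 for the joined row VIT_12s0034g01950,VIT_12s0034g01960 (SE 0.32, adjusted p = 3.20e-06). The joined row VIT_12s0034g01880,VIT_12s0034g01890 rose by 2.32 (SE 0.61, adjusted p = 0.00698).

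VIT_00s0125g00020, VIT_00s0125g00060 and VIT_00s0125g00070, on unplaced sequence, were expressed throughout. Their sum was 87.5 to 251 FPKM in pea-sized, 67.1 to 128 in touching, 154 to 357 in soft and 423 to 1124 FPKM in harvested berries. Pea-sized Barbera, with 251 FPKM, lay inside the soft range. At softening they rose by 0.90 (SE 0.20, adjusted p = 0.00273), 1.04 (SE 0.20, adjusted p = 0.00114) and 1.18 (SE 0.21, adjusted p = 7.52e-04) in that order.

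On chromosome 5 the group of VIT_05s0020g05000, VIT_05s0020g05020 and VIT_05s0020g05040 had its highest harvest sum in Sangiovese, with 1622 FPKM, against 240.3 in Barbera, 320.4 in the Negroamaro-labelled column, 347 in Refosco and 467 in the Primitivo-labelled one. VIT_05s0020g05020 rose at softening by 1.68 (SE 0.35, adjusted p = 0.00202), while VIT_05s0020g05000 changed by 0.89 (SE 0.37, adjusted p = 0.0548). Of the pairs of neighbours, VIT_09s0002g02570 and VIT_09s0002g02580 together had 555 FPKM in Refosco at harvest, against 52.5 in Sangiovese, 90.9 in Barbera, 89.3 in the column labelled Negroamaro and 57.2 in that labelled Primitivo.

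The ranking had no gap at its end. Just inside it lay VIT_17s0000g03850, with a ranking ratio of 2.91 and a harvest median of 23.4 FPKM, and VIT_14s0030g01890, with 2.90 and 11.9 FPKM. Just outside lay VIT_12s0035g01050, with 2.89 and 94.2 FPKM, and VIT_11s0118g00560, with 2.88 and 60.7 FPKM. The genes just outside were the more abundant at harvest and had soft medians of 31.9 and 20.4 FPKM, above the 7.41 and 3.45 FPKM of those just inside.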

How the data were processed

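The authors deposited 1 table of FPKM, with 29287 rows and a mean of 3 libraries for each of 20 combinations of cultivar and stage. TopHat2 2.0.6 and Cufflinks 2.0.2 are named, per the submitters' processing notes, with no role. A genome build is given in none of the sources used. The libraries were non-directional per the labels' protocols, so antisense transcripts cannot be told apart. Counts and depths are not in the table, so precision is known only from the spread over 5 cultivars. Among the rows 608 join several tags, 5 of them in the set.

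Values were used as deposited. The limma model (limma 3.58.1, R 4.3.3) was fitted to log2(FPKM + 1) of the 18207 genes averaging 1 FPKM or more, on the 15 columns before harvest, with stage and cultivar as terms, 8 residual degrees of freedom, a trended prior and Benjamini-Hochberg adjustment over all genes tested. It was tested on simulated data. Harvest levels were tabulated in Python 3.11.15 with no test. P-values of stage contrasts set the stage change against its spread between cultivars, with cultivar differences common to all stages removed. Those of the cultivar tests treat the 3 earlier stages as repeats of a cultivar. Other pseudocounts, filters, scalings and column sets, and leaving out each cultivar, were tried.

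Genes named are the first 10 in rank, the 5 with the highest harvest medians and those at the end of the ranking. The 3 with the widest and the 3 with the narrowest harvest ratios are also named, as are neighbours in runs of 3 or more. The rest are the 3 furthest up and down in each test and the 5 largest cultivar differences. Genes named outside this rule (VIT_07s0129g01010, VIT_11s0065g00350, VIT_03s0088g00700, VIT_03s0088g00710, VIT_19s0014g01370, VIT_09s0002g02570, VIT_09s0002g02580 and VIT_14s0006g02100) were chosen after their values were seen. The members and lists were chosen with earlier results of these data known. Planned lists by function and tissue could not be applied, because 0 tags matched the 29591 reference genes.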

Additional observations from a re-analysis of the deposited data

Results flagged for a closer look

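Of 164 sets of 5 cultivar values examined, 17 had 1 cultivar whose gap to the nearest other was above 0.71 of the range (Dixon's test). Named genes were taken on the log2(FPKM + 1) scale and summaries of the columns without logs. In independent sets chance flags about 1 in 20, but some genes were named for wide cultivar differences, so this rate is a rough guide.

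Negroamaro stood above the rest in touching berries for VIT_06s0004g01010 (8.87 FPKM, against 0.426 to 1.08), VIT_06s0004g01980,VIT_06s0004g01990 (1.86, against 0.166 to 0.256) and VIT_14s0030g01890 (2.02, against 0.358 to 0.574). It did so in soft berries for VIT_06s0004g01980,VIT_06s0004g01990 (29.0, against 1.09 to 2.40). The harvest column of that label was listed at 0 for VIT_13s0067g03340, where the others had 65.7 to 294 FPKM.

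Barbera was high in pea-sized berries for the sum without the most abundant gene (1123 FPKM, against 737 to 817), VIT_06s0004g01020 (3.76, against 0.245 to 0.787) and VIT_00s0125g00020 (115, against 39.1 to 52.4). In soft berries it was high for VIT_00s0270g00010 (8.48, against 0 to 0.522) and VIT_08s0040g00130 (5.41, against 0.119 to 0.820).

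Sangiovese was high for VIT_05s0020g05000 in pea-sized berries (2.84, against 0.202 to 0.650) and VIT_14s0066g01090 in touching berries (0.334, against 0 to 0.0388). Touching Refosco berries were low for VIT_04s0008g01280 (1.27, against 3.78 to 5.39) and VIT_18s0072g01010 (7.23, against 13.3 to 15.7), and had 0.0543 FPKM of VIT_08s0040g00130 where the others were listed at 0. The harvest column labelled Primitivo was low for VIT_05s0020g05020 (0.226, against 39.5 to 81.1) and VIT_08s0040g00130 (5.61, against 25.4 to 41.2).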

How the results depend on the processing

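The count of genes higher at softening, 87 of 150, was between 72 and 84 when 1 cultivar was left out. The 3 genes lower there became 1 with no filter, 0 with upper-quartile and with quantile scaling, 7 with equal totals, 1 with all 20 columns and 1 with 18 columns, and 0 to 5 when a cultivar was left out. In touching against pea-sized berries the 7 higher genes became 3 with all 20 columns, 4 with 18 columns, and 4 to 5 without 1 cultivar. The 18 lower genes became 26 with a pseudocount of 0.1 (13.2% of all genes) and 11 with a pseudocount of 5 (14.3%). They became 6 with all 20 columns, 8 with 18 columns, and 10 to 19 without 1 cultivar. The F count of 19 ran between 10 and 22 without 1 cultivar. The 18 genes with any cultivar apart became 26 with a pseudocount of 0.1 (10.6% of all genes) and 7 with a pseudocount of 5 (3.09%). They became 9 with all 20 columns, and 7 to 18 without 1 cultivar. Ranking on means in place of medians kept 94 of the 150 genes, and 60 were chosen under every alternative choice of members tried. The unused-cultivar count for Negroamaro was 115 as labelled (28.2% of all genes) and 138 with the columns exchanged (16.1%) when harvest had only to be above each earlier stage.

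Changes of sign were all in genes not called at softening (soft minus touching, log2). Leaving out 1 cultivar gave -1.39 to 2.02 for VIT_14s0066g00570, -0.14 to 0.34 for VIT_05s0094g00160 and -0.57 to 0.08 for VIT_06s0004g01640. Upper-quartile scaling gave 0.01 for VIT_06s0004g01640, and equal totals -0.06 for VIT_17s0000g03850. The cause was not tested. Scaling to equal totals and the exchange of harvest columns were chosen after seeing the data. No paired analysis was possible because the table holds means over replicates, so replicate numbers cannot be used, while cultivar is already a term of the model. Depth is unknown, and levels near 0 are the least certain.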
